A study of Mus musculus with 13 samples.

Results

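Integrin subunits of glia and leukocytes were followed as 10 genes, chosen by symbol from the deposited gene annotation: Itgam, Itgb2, Itgal, Itga4, Itga6, Itgav, Itgb1, Itgb3, Itgb5 and Itgb8. These were 10 of the 55401 named genes, each symbol stood in 1 row, and all 10 were among the 14985 genes that passed the filter on low counts. The data are bulk RNA-seq of 13 frozen brain hemispheres from male wild-type C57BL/6J mice, and each library was taken to be 1 mouse. The mice were aged 6-8 weeks per the labels and about 10 weeks per the paper. The control group (CTL, 5 libraries) ate the control diet for 6 weeks. The cuprizone group (CPZ, 4 libraries) ate 0.3% cuprizone, a copper chelator that kills mature oligodendrocytes, for 4 weeks and was collected then. The recovery group (RCV, 4 libraries) had the same 4 weeks of cuprizone and then 2 weeks of control diet, and these libraries are titled "Veh" while labelled Recovery by treatment. The design text of the labels counts fewer mice than there are libraries, namely 4 control, 3 cuprizone and 3 recovery. The paper's methods on tissue collection give the same numbers, whereas a figure legend of the paper describes bulk RNA-seq of all 13 samples, split as in the files. All animals were perfused with PBS per the study's methods, which is done to wash blood from the vessels. A whole hemisphere mixes lesioned and spared regions. CPZ mice were collected 2 weeks before the CTL and RCV mice, so diet and age at collection cannot be told apart between CPZ and the other groups.

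Integrins are receptors of the cell surface made of one α and one β chain, and they bind extracellular matrix, other cells or soluble proteins. The β2 chain pairs with αM, αL and a few other α chains and is made by microglia and blood leukocytes, the β1 chain pairs with many α chains in nearly all cells, and αv pairs with β1, β3, β5 and β8. Integrins that hold αv can release active TGF-β from its latent complex, and in the brain they are also receptors for vitronectin, fibronectin and osteopontin and for the bridging protein MFG-E8 in phagocytosis. In bulk tissue more cells of one type and more RNA per cell cannot be told apart, and this holds for each value below.

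Libraries held 4605100 to 8197289 counts, with a median of 6545158 in CTL. The tissue and the model were checked with lists of cell type markers. Of 12 markers of mature oligodendrocytes, 12 fell in CPZ against CTL, and their summed level was 994 to 1522 TPM in CPZ against 2229 to 4116 in CTL and 2949 to 4858 in RCV. TPM, the usual measure of transcript abundance, is a level per transcript length that sums to the same total in every library, and CPM (counts scaled to the library's total) is not divided by length. The 15 microglial markers all rose, with a median log2 fold change of 2.65, and their summed level was 562 to 674 TPM in CTL, 2354 to 5174 in CPZ and 914 to 1341 in RCV. None of these 15 genes is a member of the integrin set. Reactive astrocyte markers rose in 7 of 8 tested, with sums of 192 to 252, 929 to 1256 and 529 to 840 TPM in CTL, CPZ and RCV. Microglial and reactive astrocyte markers therefore rose in the same CPZ libraries as the integrin genes called below. In RCV the sums of both lists also lay wholly above CTL, whereas several integrin genes that rose in CPZ overlapped CTL there. The part of these cells in the integrin rises was not tested.

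Most markers of blood leukocytes held few counts, while Vcan, Ace and Fn1 of the monocyte list and Ighm of the B cell list held more. The part of blood leukocytes in the integrin rises was not tested. Of 10 markers of T and NK cells, 2 passed the filter and 0 were called in the CPZ comparison with CTL, and Cd3d, Cd3e and Cd3g stood at 0 to 2 counts in every library. The neutrophil list had 0 of 8 genes past the filter, and its sum was 0 to 4.02 TPM in CPZ, with single higher libraries in CTL (62.9 TPM) and RCV (70.8 TPM). Ccr2 and Ly6c2, which mark monocytes from the blood, stood at 0 to 5 and at 0 to 8 counts. The monocyte list as a whole summed to 40.8 to 60.5 TPM in CTL, 69.5 to 101 in CPZ and 44.2 to 55.1 in RCV. CPZ thus lay wholly above the other groups. Its 1 called gene of 3 tested was Fn1, which is also on the list of matrix ligands below. Vcan (128 to 198 counts) and Ace (108 to 468 counts) were tested and not called. The 6 genes of border macrophages summed to at most 9.47 TPM in any library, and 0 of 2 tested were called. The 6 platelet genes summed to at most 10.5 TPM, with 0 past the filter. Red blood cell RNA remained after perfusion, with 5 genes that summed to 850 to 1106 TPM in CTL, 687 to 1005 in CPZ and 1017 to 1466 in RCV. Of these genes 0 were called in CPZ against CTL, and 2 were called lower in CPZ against RCV. B cell markers summed to 16.7 to 38.5 TPM in CTL and 41.5 to 60.6 in CPZ, and its 1 tested gene, Ighm, was not called.

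In CPZ against CTL 8 of the 10 integrin genes were called higher and 0 lower by edgeR's quasi-likelihood test (adjusted p under 0.05), where 10.2% of all tested genes were called in either direction. In CPM the CPZ libraries lay wholly above the CTL libraries for 8 of the 10 genes, where 13.1% of all tested genes had groups that did not overlap. The median log2 fold change over the members was 0.94, and over all tested genes it was -0.02. In CPZ against RCV 7 members were called higher and 0 lower, where 7.01% of all genes were called, and 8 members did not overlap in CPM, where 13.2% of all genes did not. Their median log2 fold change was 0.96, and over all genes -0.01. In RCV against CTL 0 of 10 members were called by edgeR, where 0.374% of all genes were called, and 2 members, Itgb2 and Itgb5, had an unadjusted p under 0.05. By DESeq2 1 member was called in that comparison and by limma-voom 0. In CPM, RCV lay wholly above CTL for 3 members, Itgam, Itgb2 and Itgb5, where 2.9% of all genes had groups that did not overlap. In TPM this held for Itgam, while RCV overlapped CTL for Itgb2 (5.97 to 12.8 against 3.56 to 7.91 TPM) and Itgb5 (31.8 to 51.5 against 25.9 to 34.0 TPM). The 3 comparisons share libraries pairwise, so their values for a gene are not independent of each other.

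**Figure D1:**
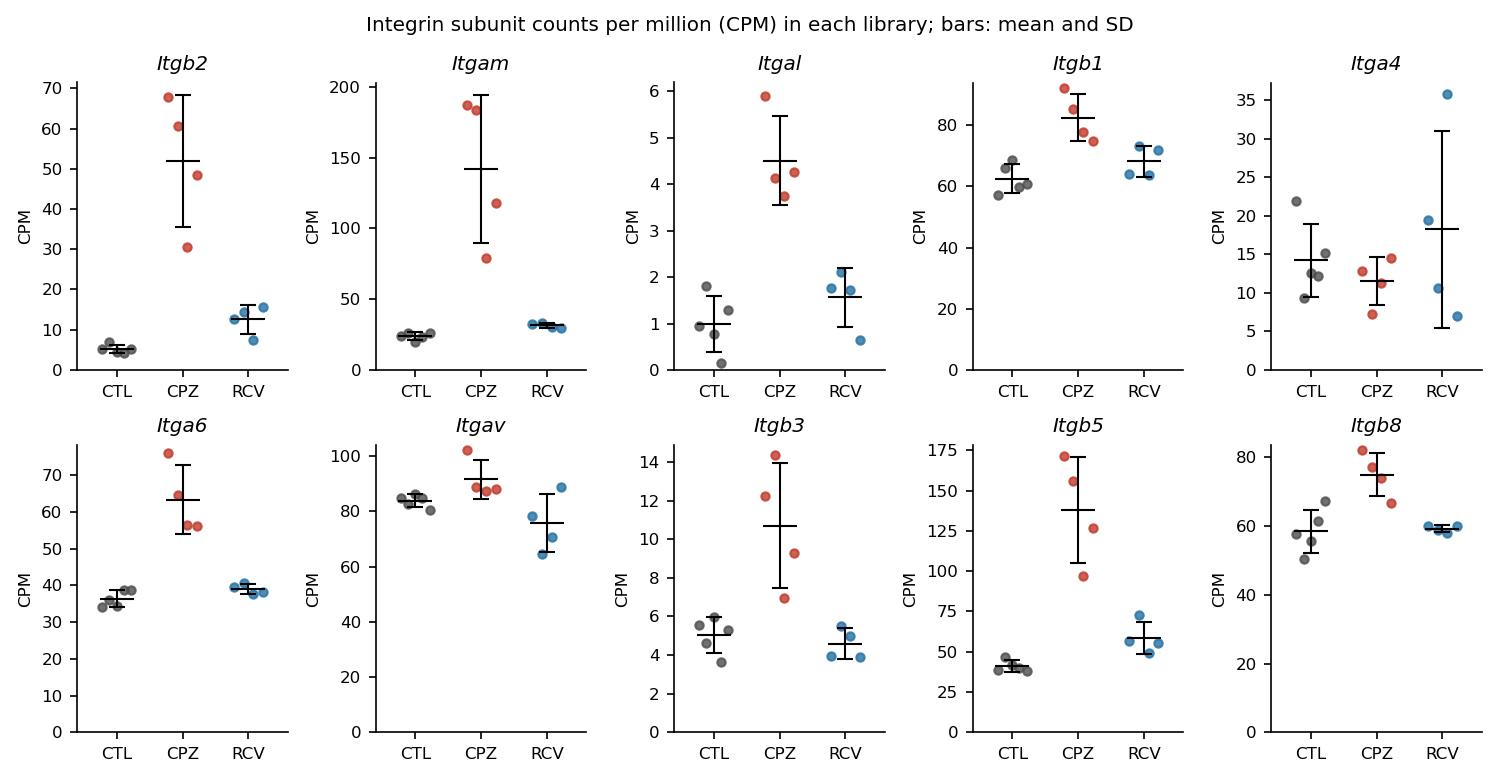
Scaled counts (CPM, vertical axes from 0) of the 10 integrin genes in each of the 13 libraries, with 5 CTL, 4 CPZ and 4 RCV points per panel; bars give the group mean and SD. The CPZ points stand wholly above the CTL points for 8 genes, Itga4 and Itgb8 being the exceptions.

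The β2 integrin genes were called higher in CPZ in both comparisons. Itgb2 (ENSMUSG00000000290.13, chr10:77530252-77565708, plus strand, GRCm38) encodes β2, or CD18, the chain shared by the leukocyte integrins. It stood at 5.17, 6.90, 4.46, 4.28 and 5.32 CPM in the CTL libraries, at 67.8, 60.8, 30.5 and 48.5 CPM in CPZ and at 12.8, 14.4, 7.51 and 15.6 CPM in RCV. The 3 groups did not overlap in CPM, with every RCV library between the CTL and the CPZ libraries, whereas RCV and CTL overlapped in TPM. Itgb2 was 9.91-fold higher in CPZ than in CTL (95% interval 6.76 to 14.5, log2 fold change 3.31 ± 0.25 SE, adjusted p = 2.0e-06). It was 4.13-fold higher in CPZ than in RCV (log2 2.04 ± 0.25 SE, adjusted p = 0.00042). Between RCV and CTL the log2 difference was 1.26 ± 0.29 SE, and it did not pass the adjusted test (adjusted p = 0.122, unadjusted p = 0.00083). This last call depends on the method, since DESeq2 gave an adjusted p of 0.00077, and edgeR gave 0.0118 without CPZ replicate 3, 0.0200 with only the RCV and CTL libraries and 0.0230 with the replicate number as a block.

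Itgam (ENSMUSG00000030786.18, chr7:128062640-128118491, plus strand) encodes αM, or CD11b, which forms complement receptor 3 with β2 and is a standard marker of microglia. It stood at 24.1, 26.4, 19.5, 23.1 and 26.4 CPM in CTL, at 187, 183, 79.2 and 118 CPM in CPZ and at 32.1, 33.4, 30.6 and 29.9 CPM in RCV. CPZ lay far above both other groups, and the RCV libraries lay close together just above the CTL range. Itgam was 5.94-fold higher in CPZ than in CTL (95% interval 4.24 to 8.31, log2 2.57 ± 0.22 SE, adjusted p = 8.5e-06) and 4.49-fold higher than in RCV (log2 2.17 ± 0.24 SE, adjusted p = 0.00035). Although RCV and CTL did not overlap, their log2 difference of 0.40 ± 0.24 SE was not called (adjusted p = 0.918). Itgam overlaps a second gene model on its strand, Gm49368, which held 20.0 counts over all libraries against 5786 for Itgam.

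Itgal (ENSMUSG00000030830.18, chr7:127296260-127335138, plus strand) encodes αL, or CD11a, the partner of β2 in LFA-1, the receptor for ICAM-1. It was the rarest member, with 7, 12, 5, 1 and 7 counts in the CTL libraries, 41, 34, 27 and 33 in CPZ and 12, 13, 9 and 3 in RCV. All CPZ libraries held more counts than any CTL or RCV library, while CTL and RCV overlapped. The mean CPM was 0.99 ± 0.61 in the 5 CTL, 4.51 ± 0.96 in the 4 CPZ and 1.56 ± 0.63 in the 4 RCV libraries (± SD). Itgal was 4.50-fold higher in CPZ than in CTL (95% interval 2.58 to 7.84, log2 2.17 ± 0.38 SE, adjusted p = 0.00090). On the log2(TPM + 1) scale, which understates changes of rare genes, the difference was 1.11. Against RCV the log2 difference was 1.48 ± 0.38 SE (adjusted p = 0.0278), a call that was lost on the TPM scale and without CPZ replicate 1 or 2 or without RCV replicate 1, 3 or 4 (adjusted p = 0.0579 to 0.10). Between RCV and CTL it was 0.69 ± 0.44 SE (adjusted p = 0.930).

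The promoters of 6 members, Itgam, Itga4, Itgb1, Itgav, Itgb5 and Itgb8, were found in the RefSeq table, which takes them from GRCm38.p6. The 250 bases before the annotated start were searched for GAGGAA and its reverse TTCCTC, a core that the myeloid factor PU.1 is known to bind and that other ETS factors also bind. The letters were found in 3 of the 6 windows, and 7639 of 32851 promoters in the table (23.3%) hold them. Below are the windows of Itgam, which rose strongly, of Itgb5, which varied with it over the libraries (r = 0.975), and of Itgav, which was not called. They run 5′ to 3′ on the strand of the gene, ending 1 base before the start, and capitals mark the searched letters.
Itgam, chr7:128062390-128062639, plus strand: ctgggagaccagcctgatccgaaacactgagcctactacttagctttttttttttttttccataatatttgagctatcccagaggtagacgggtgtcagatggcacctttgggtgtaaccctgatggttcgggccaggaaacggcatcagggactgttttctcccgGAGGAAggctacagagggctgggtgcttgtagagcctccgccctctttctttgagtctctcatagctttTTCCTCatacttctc
Itgb5, chr16:33829415-33829664, plus strand: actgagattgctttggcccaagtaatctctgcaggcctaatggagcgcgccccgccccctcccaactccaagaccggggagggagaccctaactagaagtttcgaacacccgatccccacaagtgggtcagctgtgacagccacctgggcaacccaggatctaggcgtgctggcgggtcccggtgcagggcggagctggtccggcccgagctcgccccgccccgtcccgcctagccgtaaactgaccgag
Itgav, chr2:83724147-83724396, plus strand: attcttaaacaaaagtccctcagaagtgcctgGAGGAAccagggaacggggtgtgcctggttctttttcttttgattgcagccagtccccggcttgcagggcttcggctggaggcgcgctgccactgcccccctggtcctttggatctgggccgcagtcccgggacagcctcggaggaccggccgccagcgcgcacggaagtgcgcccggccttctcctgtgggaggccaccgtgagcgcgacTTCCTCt
The Itgam window holds the letters once on each strand, 84 and 15 bases before the start. The Itgav window also holds them on each strand, 218 and 7 bases before the start, and the Itgb5 window has no match. A match is a description of the letters, not a binding site.

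**Figure D2:**
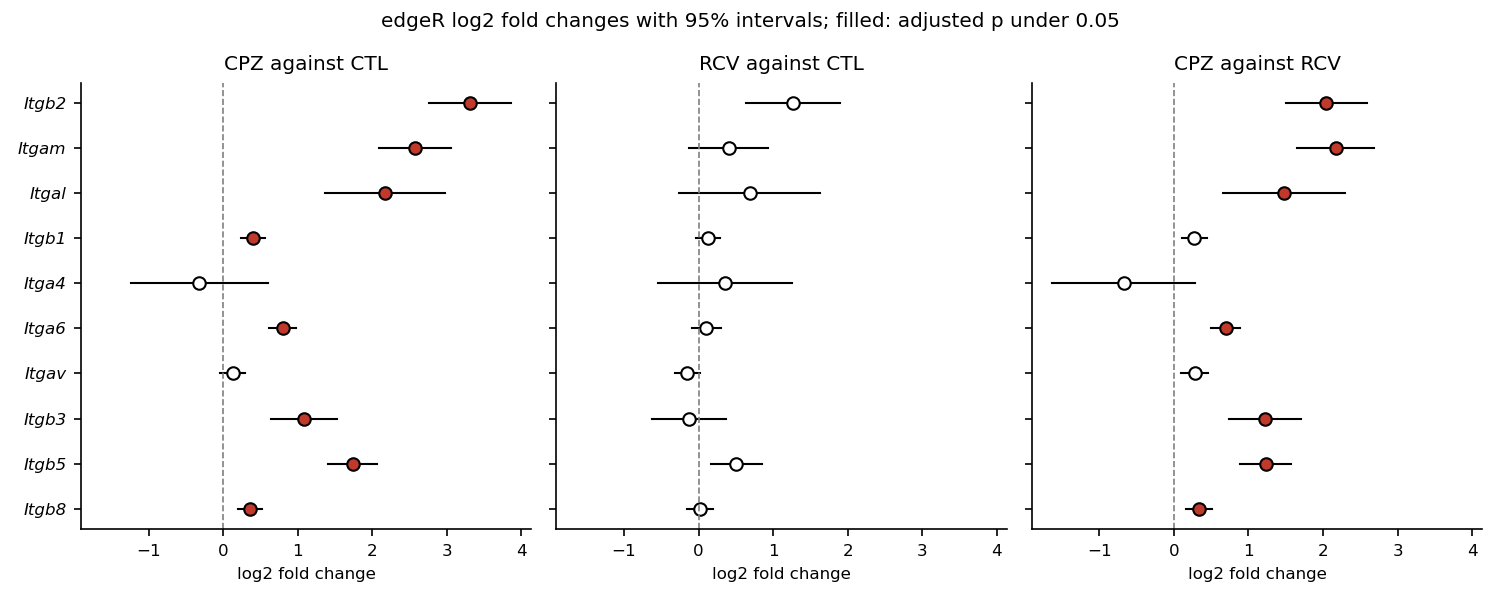
Log2 fold changes of the 10 integrin genes (horizontal axis) in the 3 comparisons, from edgeR, with 95% intervals as lines; filled points have an adjusted p under 0.05. CPZ against CTL has 8 filled points, CPZ against RCV 7 and RCV against CTL 0, and Itgb2 and Itgam lie farthest to the right in CPZ against CTL (3.31 and 2.57).

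The β1 integrins changed less. Itgb1 (ENSMUSG00000025809.15, chr8:128685654-128733200, plus strand) encodes β1, the most widely shared β chain. It stood at 57.1, 65.9, 68.7, 59.9 and 60.9 CPM in CTL, at 92.2, 85.2, 77.7 and 74.9 CPM in CPZ and at 64.1, 73.1, 63.7 and 72.0 CPM in RCV. Every CPZ library lay above every other library, and the CTL and RCV ranges overlapped. The rise in CPZ against CTL was small and passed the test, 1.32-fold (95% interval 1.18 to 1.48, log2 0.40 ± 0.08 SE, adjusted p = 0.0018). Against RCV the log2 difference of 0.27 ± 0.08 SE lay just beyond the threshold (adjusted p = 0.0511), and 9 of 23 other settings called it, among them the fits without CTL replicate 3, CPZ replicate 3 or 4 or RCV replicate 2 or 4 (adjusted p = 0.0340 to 0.0488). Between RCV and CTL the log2 difference was 0.13 ± 0.08 SE (adjusted p = 0.923).

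Itga6 (ENSMUSG00000027111.16, chr2:71745616-71858416, plus strand) encodes α6, a laminin receptor chain that pairs with β1 or β4 and is found on endothelial cells and on cells of the oligodendrocyte lineage, among others. It stood at 34.1, 36.0, 34.3, 38.7 and 38.7 CPM in CTL, at 76.1, 64.7, 56.3 and 56.0 CPM in CPZ and at 39.6, 40.7, 37.7 and 38.2 CPM in RCV. CPZ was wholly above both other groups, whose ranges overlapped. Itga6 rose 1.74-fold over CTL (95% interval 1.53 to 1.98, log2 0.80 ± 0.09 SE, adjusted p = 9.5e-06) and 1.62-fold over RCV (log2 0.69 ± 0.09 SE, adjusted p = 0.00039). RCV differed from CTL by 0.11 ± 0.09 SE on the log2 scale (adjusted p = 0.976). In CPZ against CTL 0 of 10 endothelial markers were called, with sums of 211 to 258 TPM in CPZ against 250 to 292 in CTL. Of the other lists, 12 of 12 mature oligodendrocyte markers were called lower. Called higher were 1 of 8 oligodendrocyte precursor markers and 15 of 15 microglial markers. The part of any of these cells in the Itga6 rise was not tested.

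Itga4 (ENSMUSG00000027009.18, chr2:79255426-79333123, plus strand) encodes α4, the partner of β1 in VLA-4, which leukocytes use to bind VCAM-1 and which is the target of natalizumab. It stood at 21.9, 9.30, 12.6, 12.2 and 15.2 CPM in CTL, at 12.8, 7.29, 11.2 and 14.6 CPM in CPZ and at 19.5, 10.7, 35.8 and 6.94 CPM in RCV. The highest and the lowest of all 13 libraries were both RCV libraries, and the 3 groups overlapped throughout. None of its log2 differences was called: -0.32 ± 0.42 SE in CPZ against CTL (adjusted p = 0.746), 0.35 ± 0.41 SE in RCV against CTL (adjusted p = 0.984) and -0.67 ± 0.44 SE in CPZ against RCV (adjusted p = 0.460). The 95% interval for CPZ against CTL ran from 0.42-fold to 1.51-fold, so neither a large fall nor a modest rise was resolved by these libraries. RCV against CTL turned to -0.17 without RCV replicate 3. The end of Itga4 overlaps Cerkl on the opposite strand (181 counts over all libraries against 1228 for Itga4), and whether the counting used strand is not given in the sources used here.

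Of the αv integrin genes 3 of 4 were called higher in CPZ against CTL, where 10.2% of all genes were called. Itgav (ENSMUSG00000027087.11, chr2:83724397-83806916, plus strand) encodes αv. It stood at 85.0, 82.7, 86.4, 84.9 and 80.3 CPM in CTL, at 102, 89.0, 87.4 and 87.9 CPM in CPZ and at 78.4, 64.5, 70.8 and 88.9 CPM in RCV. The CPZ libraries lay above the CTL libraries, 3 of them only just, and RCV overlapped both. The 1.09-fold difference between CPZ and CTL was not called (95% interval 0.97 to 1.23, log2 0.13 ± 0.08 SE, adjusted p = 0.390), and it turned to -0.12 on the log2 TPM scale. CPZ against RCV gave 0.28 ± 0.08 SE (adjusted p = 0.0601), which 4 of 23 other settings called, among them the fit without RCV replicate 4 (adjusted p = 0.0093), and RCV against CTL gave -0.15 ± 0.08 SE (adjusted p = 0.855).

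Itgb5 (ENSMUSG00000022817.15, chr16:33829665-33949338, plus strand) encodes β5, which with αv binds vitronectin and takes part in phagocytosis. It stood at 38.6, 47.0, 42.1, 40.2 and 38.1 CPM in CTL, at 172, 156, 97.3 and 127 CPM in CPZ and at 56.6, 72.9, 49.3 and 55.3 CPM in RCV. As for Itgb2, the 3 groups did not overlap in CPM and RCV lay between the others, while RCV and CTL overlapped in TPM. Itgb5 rose 3.34-fold over CTL (95% interval 2.66 to 4.19, log2 1.74 ± 0.15 SE, adjusted p = 4.5e-06) and 2.35-fold over RCV (log2 1.23 ± 0.16 SE, adjusted p = 0.00051). In RCV against CTL the log2 difference was 0.51 ± 0.16 SE (adjusted p = 0.358, unadjusted p = 0.0067), and 0 of 23 other settings called it.

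Itgb3 (ENSMUSG00000020689.4, chr11:104608000-104670476, plus strand) encodes β3, the αv partner best known from osteoclasts and, with αIIb, from platelets. It stood at 5.57, 4.65, 5.99, 3.67 and 5.32 CPM in CTL, at 12.2, 14.3, 6.94 and 9.30 CPM in CPZ and at 3.96, 5.51, 5.0 and 3.90 CPM in RCV. CPZ lay above all other libraries, with CPZ replicate 3 closest to them, and CTL and RCV overlapped. Itgb3 rose 2.12-fold over CTL (95% interval 1.56 to 2.88, log2 1.09 ± 0.21 SE, adjusted p = 0.0019) and 2.33-fold over RCV (log2 1.22 ± 0.23 SE, adjusted p = 0.0035). The RCV difference from CTL was -0.13 ± 0.23 SE (adjusted p = 0.994). Itga2b, which encodes αIIb, reached at most 14 counts and was not called in CPZ against CTL (log2 0.11, adjusted p = 0.886).

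Itgb8 (ENSMUSG00000025321.14, chr12:119158022-119238802, minus strand) encodes β8, which with αv is known to activate latent TGF-β and is made by astrocytes and other neural cells. It stood at 57.6, 50.4, 55.6, 61.3 and 67.3 CPM in CTL, at 82.0, 77.1, 74.1 and 66.8 CPM in CPZ and at 60.0, 59.0, 57.9 and 60.1 CPM in RCV. CPZ overlapped CTL by 1 library on each side and lay above all RCV libraries, which lay close together. Itgb8 rose 1.28-fold over CTL (95% interval 1.14 to 1.44, log2 0.36 ± 0.08 SE, adjusted p = 0.0051) and 1.27-fold over RCV (log2 0.34 ± 0.08 SE, adjusted p = 0.0192). Both calls were lost on the TPM scale, and the call against RCV was also lost without CPZ replicate 1 or 2 or RCV replicate 1 or 3 (adjusted p = 0.0504 to 0.0725). RCV differed from CTL by 0.02 ± 0.08 SE (adjusted p = 0.998). Of 10 general astrocyte markers 3 rose, with sums of 2134 to 2448 TPM in CPZ against 1983 to 2368 in CTL. Of 8 tested reactive astrocyte markers 7 rose, with sums of 929 to 1256 TPM in CPZ against 192 to 252 in CTL. The part of astrocytes in the Itgb8 difference was not tested.

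Levels per length put the members in a different order in CPZ. In CTL the mean TPM ran from Itgav at 39.0 ± 7.01 (SD, n = 5) over Itgb1 at 34.7 ± 2.94, Itgb5 at 28.3 ± 3.41 and Itga6 at 23.9 ± 3.47, each overlapping the next. Itgb8 at 14.3 ± 1.71 and Itgam at 10.7 ± 1.33 followed, with no overlap between them. Below them came Itgb2 at 5.57 ± 1.55, Itga4 at 3.23 ± 0.94, Itgb3 at 1.85 ± 0.23 and Itgal at 0.50 ± 0.30. In CPZ the highest were Itgb5 at 95.5 ± 22.4 (SD, n = 4) and Itgam at 63.3 ± 24.9, which overlapped each other. Itgb1 at 44.5 ± 4.66, Itgb2 at 40.4 ± 14.2, Itga6 at 38.8 ± 7.25 and Itgav at 35.8 ± 5.65 came next, each overlapping its neighbour. In RCV Itgb5 at 40.1 ± 8.22 (SD, n = 4), Itgb1 at 37.4 ± 2.64, Itgav at 33.5 ± 8.50 and Itga6 at 23.5 ± 1.17 led the order, and Itgam stood at 13.9 ± 0.54 beside Itgb8 at 14.2 ± 0.48. TPM of 1 gene depend on the transcript length the authors' tool assigned in each library: the TPM per CPM of Itgal, Itgb2 and Itgav moved between libraries by up to 1.81-fold, 1.70-fold and 1.68-fold.

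**Figure D3:**
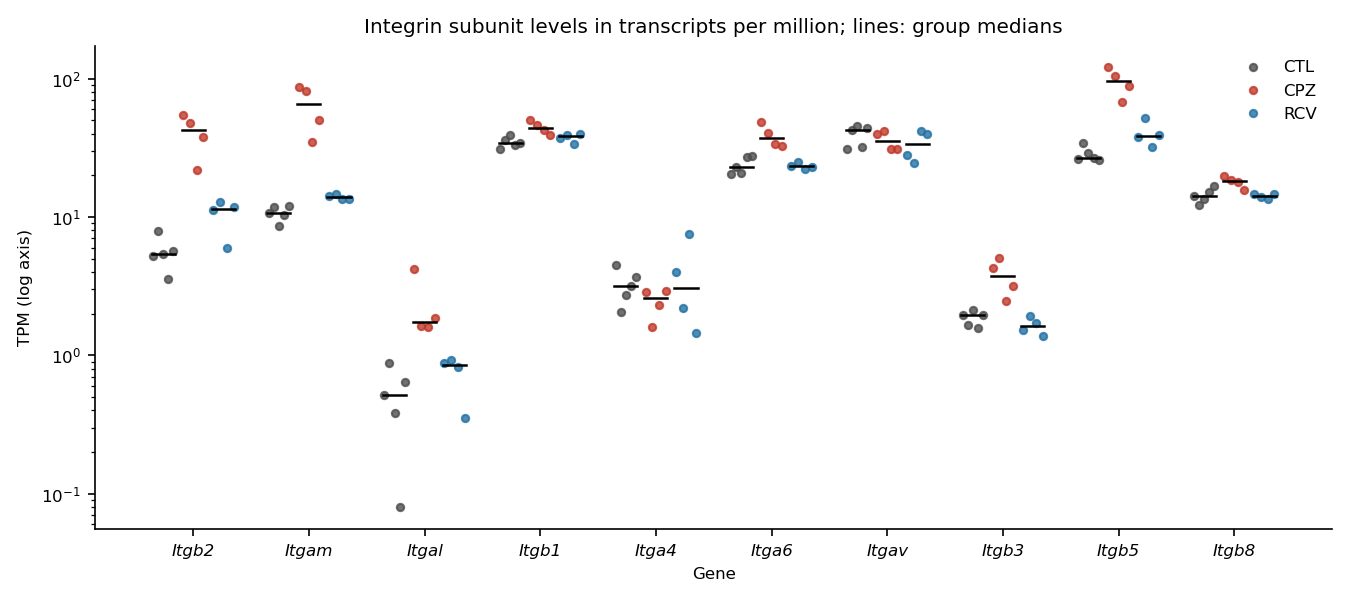
Level of each integrin gene per transcript length (TPM, vertical log axis) in each library, coloured by group (CTL, CPZ, RCV), with short lines at the group medians. Itgb5 and Itgam lead in CPZ (means of 95.5 and 63.3 TPM), whereas Itgav and Itgb1 lead in CTL (39.0 and 34.7 TPM).

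Ratios between chains were compared within a library, in 9 ratios and 27 tests. All were between chains that pair with each other, except Itgal to Itgam, whose products both pair with β2. Exact two-sided permutation tests were used, whose smallest possible p is 0.0159 for 4 against 5 libraries and 0.0286 for 4 against 4. Of the 27 tests 8 had an unadjusted p under 0.05, and 0 passed the Benjamini-Hochberg adjustment, the smallest adjusted p being 0.129. Over 27 tests a ratio at the smallest possible p could not pass this adjustment on its own. The adjusted p therefore cannot decide whether a single ratio differed. The ratio of Itgb5 to Itgav had a mean of 0.738 ± 0.118 (SD) in the 5 CTL libraries, 2.65 ± 0.356 in the 4 CPZ libraries and 1.30 ± 0.586 in the 4 RCV libraries. It was higher in 4 of 4 CPZ libraries than in any CTL or RCV library (exact permutation p = 0.0159 against CTL, adjusted 0.129). Itgb3 to Itgav likewise stood at 0.0484 ± 0.00916 in CTL, 0.103 ± 0.0175 in CPZ and 0.0522 ± 0.0192 in RCV, with no overlap between CPZ and either other group (exact permutation p = 0.0159 against CTL, adjusted 0.129). Itgav to Itgb1 was lower in 4 of 4 CPZ libraries than in any CTL library, with means of 0.802 and 1.12 (exact permutation p = 0.0159, adjusted 0.129), and its RCV libraries spread from 0.623 to 1.23. The ratio of Itgam to Itgb2 overlapped in all comparisons, at 2.03 ± 0.561 in CTL, 1.56 ± 0.162 in CPZ and 1.45 ± 0.535 in RCV (exact permutation p = 0.143 for CPZ against CTL, adjusted 0.321).

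**Figure D4:**
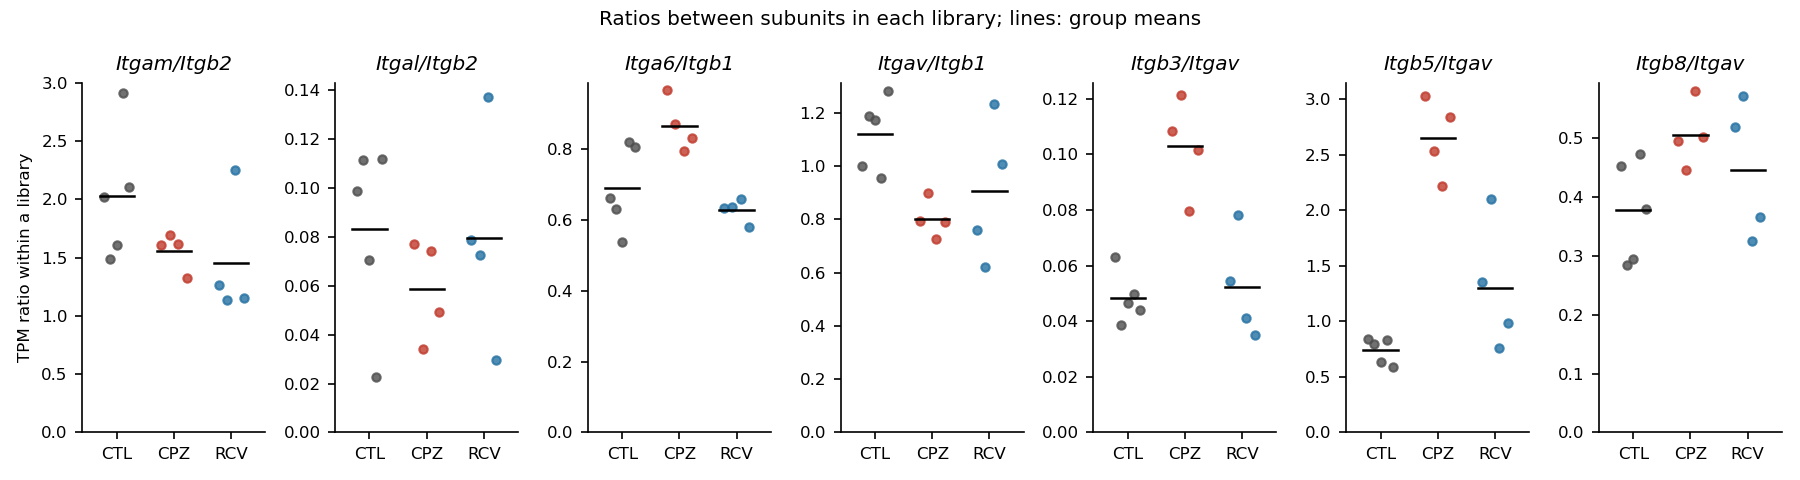
Ratio of the TPM of 2 integrin chains (vertical axes from 0) in each CTL, CPZ and RCV library for 7 of the 9 ratios, with lines at the group means. Itgb5/Itgav and Itgb3/Itgav are higher in all 4 CPZ libraries than in the 5 CTL libraries, and Itgam/Itgb2 overlaps between the groups.

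The part of the CPZ change left in RCV is given as a description on the log2-CPM scale, where 0 is the CTL mean and 1 the CPZ mean. The mean over the 4 RCV libraries was 0.372 ± 0.145 (SD) for Itgb2, 0.288 ± 0.139 for Itgb5, 0.162 ± 0.028 for Itgam and 0.132 ± 0.063 for Itga6. It was 0.070 ± 0.067 for Itgb8, 0.299 ± 0.294 for Itgal and -0.121 ± 0.230 for Itgb3, with libraries on both sides of 0 for each of these 3 genes. For Itgb1 it was 0.317 ± 0.266, with all 4 libraries above 0 (0.077 to 0.573). For Itga4 and Itgav, which were not called in CPZ against CTL, the CPZ change is too small to divide by, and no share is given. Whether these shares differ from each other was not tested.

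Genes with the most similar pattern were sought by Pearson correlation of log2-CPM over the 13 libraries, which share the group differences, for the 8 members with a mean of at least 50 counts per library. As a description, Itgam was nearest to Fcrls (r = 0.991), Cotl1 and Stab1, Itgb2 to Trem2 (r = 0.994), C1qb and Tyrobp, and Itgb5 to Cx3cr1 (r = 0.995), Ctsz and Irf8. Fcrls, Trem2, C1qb, Tyrobp and Cx3cr1 are on the list of microglial markers. Itga6 was nearest to Sat1 (r = 0.988), Stab1 and Itgam, Itgb1 to Npc2 (r = 0.974), Slc37a2 and Hspa9, and Itgb8 to Psme2 (r = 0.937), P2ry13 and Slc3a2. Itgav had its nearest gene at a lower r, 1300002E11Rik (r = 0.872). Itga4 was nearest to Tbata (r = 0.932), Col5a2 and Fam13c, and the same genes were nearest with the group means subtracted (r = 0.927 for Tbata). For the other members most neighbours changed on that subtraction. Itgam was then nearest to Ncf1 (r = 0.965), Itgb5 to Nckap1l (r = 0.961) and Itgb2 to Npl (r = 0.947). Trem2 stayed among the 3 nearest genes of Itgb2 and Irf8 among those of Itgb5. No other neighbour of those members was kept. With the group means subtracted, r was 0.790 for Itgam and Itgb5, 0.813 for Itgb2 and Itgb5 and 0.735 for Itgam and Itgb2. Itgal, the rarest member, had lower values, 0.324 with Itgam, 0.269 with Itgb2 and 0.329 with Itgb5, and Itgav and Itgb5 had r = 0.04.

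Of 17 other integrin subunits 11 passed the filter. In CPZ against CTL 1 was called higher, 1 lower and 9 not, where 10.2% of all tested genes were called. Itgax, the αX chain (CD11c) that also pairs with β2, was the higher one. It held 0 to 4 counts in the CTL libraries, 158 to 279 in CPZ and 32 to 124 in RCV, so RCV remained wholly above CTL. Its log2 fold change was 6.21 ± 0.52 SE in CPZ (adjusted p = 5.4e-06) and 5.28 ± 0.57 SE in RCV (adjusted p = 0.0019), both against the few CTL counts, and CPZ against RCV was not called (0.93 ± 0.33 SE, adjusted p = 0.137). In the edgeR fit of all 13 libraries 0 of the 10 members were called in RCV against CTL, where 0.374% of all genes were called. Of the 11 other tested subunits 1 (Itgax) was called in that comparison. Itgb2 was called in it in the 4 settings given above, and the other subunits were tested in the edgeR fit of all libraries alone. Itgb4, the β4 chain that pairs with α6, was the lower one, at 38 to 64 counts in CPZ against 77 to 190 in CTL and 75 to 157 in RCV (log2 -1.69 ± 0.26 SE against CTL, adjusted p = 0.00044, and -1.63 ± 0.27 SE against RCV, adjusted p = 0.0021). Mature oligodendrocyte markers fell in the same libraries, and their part in the Itgb4 difference was not tested. Itga5, the fibronectin receptor chain, had a log2 difference of 0.77 and was not called (adjusted p = 0.489). Itga2, Itgad, Itgae, Itgb2l, Itgb6 and Itgb7 did not pass the filter, with at most 6 counts in any library.

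Ligands on other cells were tested for 8 of 10 listed genes. In CPZ against CTL 3 were called higher and 1 lower, where 10.2% of all tested genes were called. Icam1, the ligand of LFA-1 and complement receptor 3, held 5 to 21 counts in CTL, 37 to 105 in CPZ and 15 to 27 in RCV (log2 2.49 ± 0.33 SE against CTL, adjusted p = 8.3e-05). F11r, a junctional adhesion molecule that binds LFA-1, rose by 1.38 ± 0.23 SE on the log2 scale (adjusted p = 0.00077), and Vcam1, the ligand of VLA-4, by 0.45 ± 0.08 SE (adjusted p = 0.00091). The same 3 genes were called higher against RCV, where 7.01% of all genes were called. Jam3 fell by 0.40 ± 0.11 SE (adjusted p = 0.0222). Madcam1 and Icam4 did not pass the filter.

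Of 23 tested matrix and soluble ligands 3 were called higher, 1 lower and 19 not in CPZ against CTL. The list median was 0.05, and 10.2% of all tested genes were called in either direction. Spp1, which encodes osteopontin, a ligand of αv and α4 integrins, held 32 to 75 counts in CTL, 362 to 1489 in CPZ and 99 to 163 in RCV (log2 3.77 ± 0.45 SE against CTL, adjusted p = 0.00016, and 2.26 ± 0.43 SE against RCV, adjusted p = 0.0090). Fn1, which encodes fibronectin, rose by 1.53 ± 0.23 SE against CTL (adjusted p = 0.00089) and by 1.33 ± 0.25 SE against RCV (adjusted p = 0.0072). C3, whose fragment iC3b is bound by complement receptor 3, rose by 1.57 ± 0.45 SE against CTL (adjusted p = 0.0413). Unlike Spp1 and Fn1, C3 was not called in CPZ against RCV (log2 -0.12 ± 0.43 SE, edgeR adjusted p = 0.926). It held 41 to 77 counts in CPZ and 28 to 74 in RCV. RCV against CTL gave 1.69 ± 0.46 SE and was not called (edgeR adjusted p = 0.227). Mfge8, the bridge between αv integrins and dying cells, fell by 0.44 ± 0.10 SE (adjusted p = 0.0115). Vtn, the αv ligand vitronectin, was not called (log2 -0.14, adjusted p = 0.304), nor was Tnc (log2 1.33 ± 0.39 SE, adjusted p = 0.0502). None of the laminin and collagen IV genes listed was called, and Fga, Fgb and Fgg, the fibrinogen chains, stood at 0 or 1 count.

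The latent TGF-β list had 2 of 8 genes called higher and 0 lower in CPZ against CTL, where 10.2% of all genes were called. Tgfb1 held 26 to 46 counts in CTL, 114 to 270 in CPZ and 38 to 52 in RCV (log2 2.25 ± 0.20 SE against CTL, adjusted p = 2.1e-06, and 1.76 ± 0.21 SE against RCV, adjusted p = 0.00029). Nrros, the microglial protein that tethers latent TGF-β1, rose by 1.14 ± 0.24 SE against CTL (adjusted p = 0.0049). Tgfb2, Tgfb3, Ltbp1, Ltbp3, Ltbp4 and Lrrc32, the other tether, were not called, with log2 differences between -0.20 and 0.12.

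Linkers and activators inside the cell were called higher for 6 of 20 tested genes and lower for 0 in CPZ against CTL. The same 6 were higher against RCV. Among all tested genes 10.2% were called in CPZ against CTL and 7.01% in CPZ against RCV. Fermt3 (kindlin-3, the kindlin of blood cells and microglia) rose by 2.21 ± 0.24 SE (adjusted p = 1.2e-05), Apbb1ip (RIAM, which recruits talin) by 2.02 ± 0.22 SE (adjusted p = 9.7e-06) and Parvg (γ-parvin, found mainly in blood cells) by 1.88 (adjusted p = 4.8e-05). Tln1 (talin-1) rose by 0.85 ± 0.11 SE (adjusted p = 5.9e-05), Lims1 by 0.64 (adjusted p = 0.00030) and Rap1b by 0.50 (adjusted p = 3.1e-05). Tln1, Lims1 and Rap1b are widely expressed. Of the other 14 tested genes, Fermt2, Parva, Parvb, Tln2, Lims2 and Rap1a, paralogs of called genes that were picked out after their values were seen, had log2 differences between -0.15 and 0.04 and were not called. Bcar1 was called lower against RCV (log2 -0.27 ± 0.07 SE, adjusted p = 0.0402). Among 4 inactivators Dok1 rose by 1.24 ± 0.30 SE (adjusted p = 0.0133), with at most 30 counts in a library, and Sharpin, Itgb1bp1 and Flna were not called. In RCV against CTL edgeR called 0 genes of the ligand, latent TGF-β, linker and inactivator lists, where 0.374% of all genes were called.

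**Figure D5:**
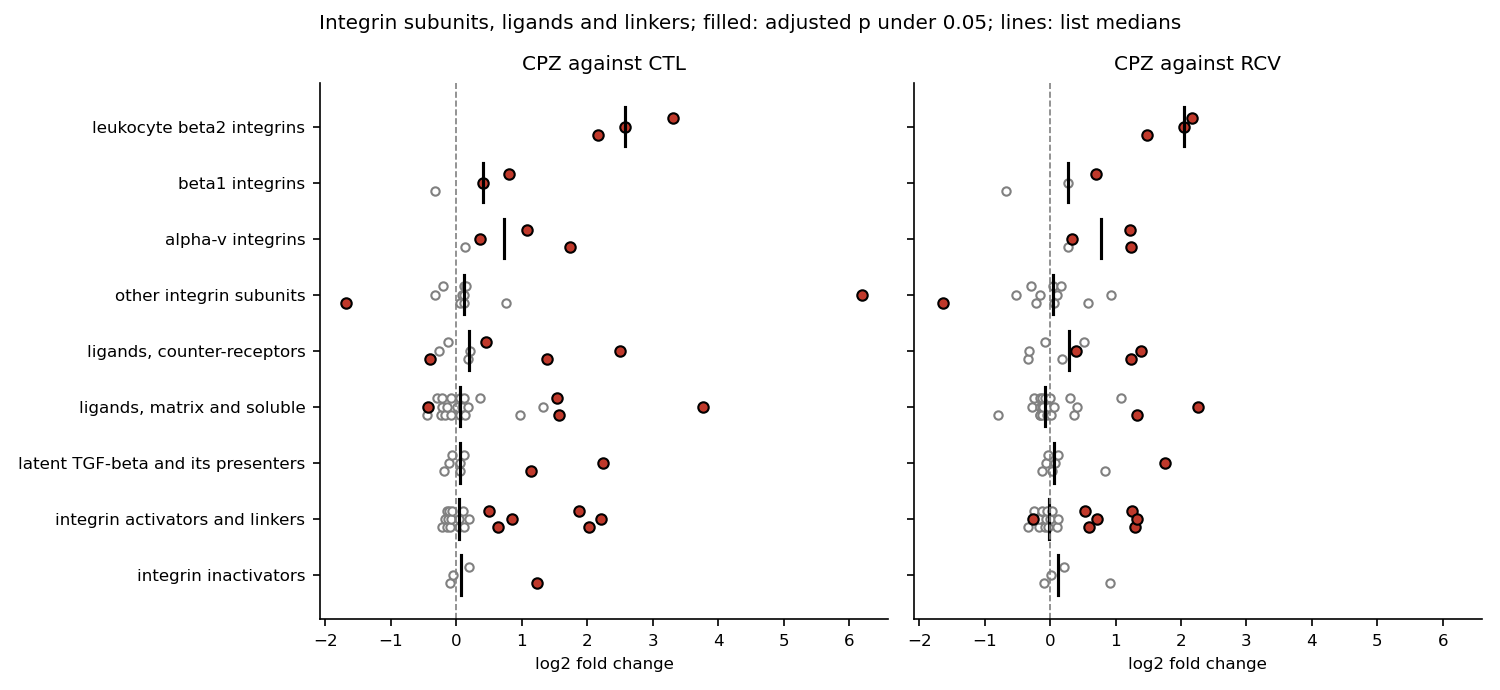
Log2 fold changes (horizontal axes) of the tested genes of each integrin list in CPZ against CTL (left) and CPZ against RCV (right); filled points have an adjusted p under 0.05 and lines mark the list medians. The median of the β2 integrin genes Itgam, Itgal and Itgb2 (2.57 in CPZ against CTL) stands apart from the medians of the ligand and linker lists. Those lie near 0, with single genes such as Itgax (6.21) and Spp1 (3.77) far to the right.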

How the data were processed

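RNA from 13 frozen brain hemispheres was sequenced by the authors as paired-end poly(A) libraries. The submitters' processing notes name STAR, RSEM and mm10, the study names the RNASequest pipeline, while versions, annotation release and use of strand were not given in the sources used here. The authors deposited unscaled estimated counts for each gene and TPM values (scaled to one total per library and by the transcript length that was estimated in each library). Of the count values 4.45% were not whole, so the table was rounded to whole numbers first. All 92 spike-in identifiers stood at 0 counts.

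Genes were filtered with filterByExpr by group, scaled by TMM and tested in edgeR 4.0.16 (R 4.3.3) by its robust quasi-likelihood test, in 1 fit of all 13 libraries with 1 mean per group. Benjamini-Hochberg adjustment ran over 14985 genes, with a threshold of 0.05, and standard errors were derived from the F statistic. CPM were TMM-scaled, and log2-CPM used a prior count of 2. Ratios of TPM within a library were set against each other in exact permutation tests (two-sided, scipy 1.17.1) and adjusted over the 27 tests. Intervals are for the difference of group means, given the spread between libraries in the fit, and are not a range of single mice. Gene positions are from GENCODE M21 on GRCm38, where 9 of the 10 identifiers matched in version and Itga6 matched apart from the version. Promoters are from RefSeq, GRCm38.p6.

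The 10 genes and all lists were chosen with earlier results of these data known. Named are all 10 genes, the called genes of each list (at most 8 per list and comparison), list genes that bear on a member, and the 3 nearest genes by correlation; genes named without a call were chosen after their values were seen. Alternatives were DESeq2 1.42.0, limma-voom (limma 3.58.1), DESeq2 size factors, no filter, at least 10 counts in every library, limma on log2(TPM + 1) or log2(TPM + 0.1) over genes that reached a TPM of 1 in 4 libraries, the former without a filter, only the 2 groups compared, the replicate number as a block and each library left out in turn. For the ratios they were 0.1 TPM added, CPM in place of TPM and each library left out.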

Additional observations from a re-analysis of the deposited data

Results flagged for a closer look

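Of 30 groups of libraries tested (10 genes in 3 groups), 1 held a library far from the others, and chance alone picks out about 1 in 20 such groups. Itgav stood at 6.68 log2-CPM in CPZ replicate 1, against 6.45 to 6.48 in the other 3 CPZ libraries, and the gap was 0.886 of the range of the group, above Dixon's critical value at 95% for 4 libraries. That library also had the highest summed level of the 15 microglial markers (5174 TPM, against 2354 to 4524 TPM in the other CPZ libraries). Without it the log2 difference of Itgav between CPZ and CTL was 0.08 in place of 0.13, and neither was called (edgeR adjusted p = 0.726 and 0.390).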

How the results depend on the processing

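The number of members called in CPZ against CTL was 7 or 8 in all alternatives, and in CPZ against RCV 5 to 9 (5 on each TPM scale and without CPZ replicate 1, CPZ replicate 2, RCV replicate 1 or RCV replicate 3). In RCV against CTL it rose from 0 to 1, Itgb2, with the DESeq2 Wald test, with only the 2 groups compared and with the replicate block, and it ranged from 0 to 1 over the fits that left out 1 library (1 without CPZ replicate 3); the cause was not tested. Deviations from the group means correlated at r = -0.20 to 0.14 between same-numbered libraries of different groups (12 pairs). The 3 pairs above 0.1 were all of a CTL and an RCV library. Pairs with different numbers were not compared, so whether the numbers pair libraries cannot be told. With the replicate block 8 members were called in CPZ against CTL, 1 in RCV against CTL and 7 in CPZ against RCV. The number of genes called in RCV against CTL was 56 by edgeR, 124 by DESeq2 and 12 by limma-voom, and in CPZ against RCV 1050 by edgeR and 487 to 599 on the TPM scales. Itgal could not be tested with at least 10 counts in every library.

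Directions turned only for differences that were not called. On log2 TPM, with a pseudocount of 1 with or without the filter or of 0.1, Itgav in CPZ against CTL was -0.12 and, in RCV against CTL, Itga6 was -0.013 and Itgb8 -0.0035 or -0.0033. Without 1 library in turn, Itgb8 in RCV against CTL ran from -0.028 to 0.070 and Itga4 from -0.17 to 0.60. With CPM in place of TPM the log2 ratio differences turned to 0.049 for Itgal/Itgam in CPZ against CTL, 0.015 for Itga4/Itgb1 in RCV against CTL and 0.011 for Itgav/Itgb1 in CPZ against RCV. Without 1 library in turn, the log2 ratio differences in RCV against CTL ran from -0.47 to 0.36 for Itgal/Itgb2, from -0.58 to 0.29 for Itga4/Itgb1, from -0.16 to 0.23 for Itgb3/Itgav and from -0.11 to 0.77 for Itgal/Itgam. That of Itgal/Itgam in CPZ against CTL ran from -0.59 to 0.25, and in CPZ against RCV those of Itgal/Itgb2 and Itgav/Itgb1 ran from -0.73 to 0.0061 and from -0.29 to 0.034. Itgal had 1 to 13 counts in the CTL and RCV libraries.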

Other observations

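The library with the most Itga4 (RCV replicate 3, 35.8 CPM) and the one with the least (RCV replicate 4, 6.94 CPM) were also the only ones almost without choroid plexus RNA. The 6 choroid plexus markers summed to 9.88 and 11.9 TPM there, and to 746 to 5134 TPM in the other 11 libraries. In the same 2 libraries Itgam stood at 30.6 and 29.9 CPM and Itgb2 at 7.51 and 15.6 CPM.

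In the 2 libraries with the most neutrophil marker RNA, CTL replicate 2 (62.9 TPM) and RCV replicate 1 (70.8 TPM), against at most 6.55 TPM elsewhere, Itgb2 stood at 6.90 and 12.8 CPM and Itgal at 1.80 and 1.76 CPM. Both genes had their highest CTL level in CTL replicate 2, and neither had its highest RCV level in RCV replicate 1.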
